A study of Mus musculus with 15 samples.

Results

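Lymphatic endothelial cells of the lymph node that drains a transplanted melanoma (TdLN) were compared with those of a node that does not drain it (NdLN), over all genes with enough counts to be tested. The groups were taken from the labels of the libraries, 5 libraries a group, which makes 10 of the 15 libraries of the series. The remaining libraries, of lymphatic cells sorted from the tumor itself, are used here only in 1 alternative fit. All mice were of strain C57bl/6, were 10 weeks old and carried the same kind of tumor, a mouse melanoma line that the labels describe as lymphangiogenic, so NdLN cells also came from tumor-bearing mice and no node of a tumor-free mouse is part of the comparison. Cells were sorted as negative for CD45 and positive for CD31 and gp38. The labels do not say whether a library holds cells of 1 mouse or of several, so a p-value here is set against a spread among libraries that may be technical. They also do not say whether equal library numbers in the groups mark the same mouse, and the main test treats the groups as unpaired.

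Lymphatic endothelium lines the sinuses of a lymph node, through which lymph, antigen and immune cells arrive from the tissue upstream. The cells of the sinus ceiling and floor and of the medulla differ in the genes they express, and they make chemokines and scavenging receptors that shape the traffic of leukocytes. In nodes downstream of a tumor the lymphatic network is known to grow. Inducible genes such as Fos and Atf3 are transcribed within minutes of a stimulus and their mRNAs are short-lived.

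Of 13002 genes tested with edgeR's quasi-likelihood test, 698 (5.37%) passed a Benjamini-Hochberg adjusted p of 0.05, which is the threshold for every change called below. Of the 698, 270 (2.08% of those tested) were higher and 428 (3.29%) were lower in TdLN. Of the 270 genes called higher 144, and of the 428 called lower 113, differed by more than 1 on the log2 scale. The median log2 fold change over all tested genes was 0.01. For 599 of the 698 called genes no TdLN library overlapped any NdLN library, and over all tested genes 1037 (7.98%) had no such overlap. Levels below are CPM, the count of a gene scaled to a common library size by library total and TMM factor, and log2 fold changes are TdLN over NdLN with their standard error (SE).

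**Figure D1:**
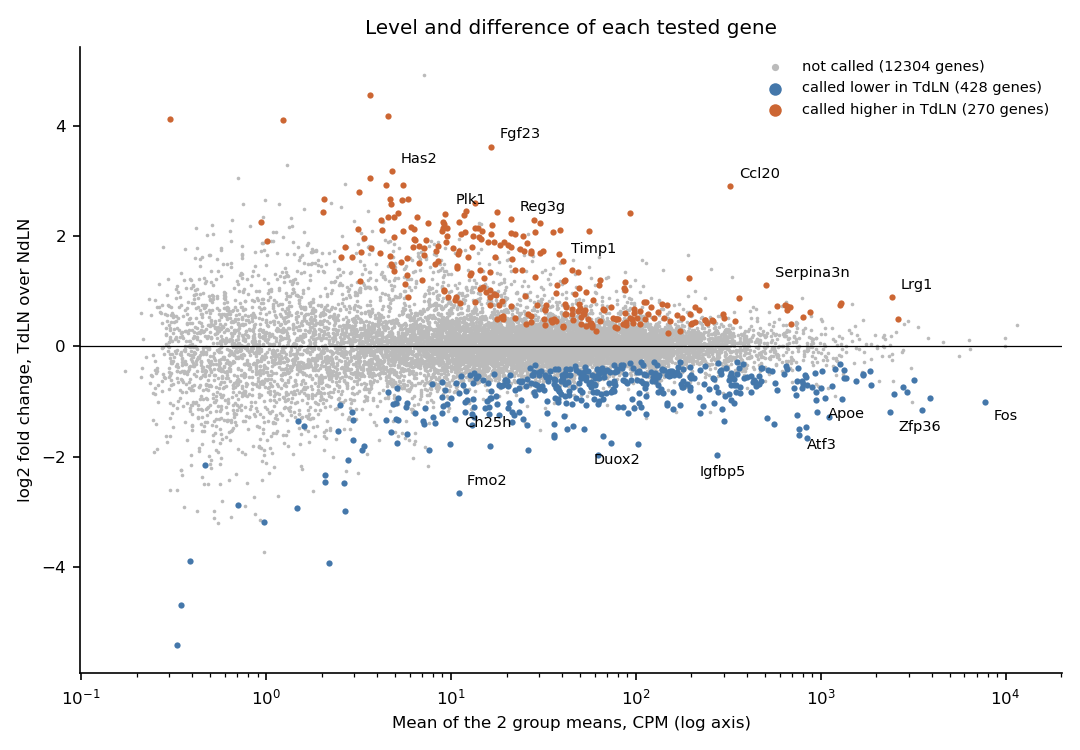
Each point is 1 of the 13002 tested genes, with its level in CPM on a log axis and its log2 fold change of TdLN over NdLN on the vertical axis. The 428 genes called lower (blue) reach up to high CPM values, such as that of Fos, while the 270 called higher (orange) include low-level genes with large folds, such as Fgf23 and Has2.

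The libraries were read first for what they hold. Total counts were 31894931 to 37437282 in NdLN and 32134127 to 37043976 in TdLN libraries. Genes that define lymphatic endothelium were present in every library, with Prox1 at 430 to 777 CPM, the matrix protein gene Mmrn1 at 2256 to 4822 CPM and the hyaluronan receptor gene Lyve1 at 624 to 1979 CPM. Pdpn, which encodes gp38, averaged 119 ± 19.4 CPM over NdLN and 117 ± 16.1 CPM over TdLN libraries (SD, n = 5; edgeR adjusted p = 0.922). Ptprc, which encodes CD45, ranged from 0.367 to 8.57 CPM across NdLN, against 0 to 2.35 CPM across TdLN. It was not called (log2 fold change -2.29, edgeR adjusted p = 0.188). Across all libraries, markers of T cells summed to 48.4 to 73.5 CPM and of B cells to 14.5 to 48.8 CPM. Those of lymphatic endothelium summed to 7139 to 10660 CPM. Among T cell markers, Cd5 and Lck were at 13.1 to 49.8 CPM, and the others reached at most 4.45 CPM. All T cell markers except Lck had negative log2 fold changes and were not called. The part of leukocytes in the differences between the groups was not tested. The first principal component (25.9% of the variance) put NdLN 3, NdLN 4, NdLN 5 and TdLN 3 on one side and the other libraries on the other, and the second (24.8%) separated the groups with TdLN 4 and TdLN 5 nearest to the NdLN libraries. Summed blood endothelial markers were at 3924 to 5338 CPM in the first-named libraries and 5758 to 9880 CPM in the others, a difference that crosses the groups. Plvap, a gene of fenestrated and of some lymphatic endothelium, carried this split, at 312 to 1418 CPM in the first-named libraries and 2383 to 4898 CPM in the others. In bulk libraries fewer cells of a type and less RNA per cell cannot be told apart.

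Transcription factors that are induced by stimulation were lower in TdLN, in counts that changed little when libraries were left out. Of 27 tested members of that list 17 fell in TdLN and 0 rose, and their median log2 fold change was -0.86, and 15 to 17 fell whichever library was left out. Fos, a partner in AP-1 dimers, fell with them. In the NdLN libraries Fos was at 9480, 11260, 11480, 9668 and 10090 CPM, and in the TdLN libraries at 4893, 4571, 5141, 6453 and 4883 CPM. Every TdLN library lay below every NdLN library, and within each group the libraries were close to each other (log2 fold change -1.0 ± 0.11, edgeR adjusted p = 0.00164). RNA came from sorted cells, so for inducible genes here and below, levels in the node and changes during handling cannot be told apart. The part of handling was not tested.

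Atf3, a stress-induced factor of the ATF family, was at 914, 1316, 1148, 1113 and 1140 CPM in NdLN and at 410, 318, 446, 490 and 338 CPM in TdLN libraries. The lowest NdLN library was thus well above the highest TdLN library (-1.49 ± 0.14, edgeR adjusted p = 0.00091). Other AP-1 genes fell as well, Fosb (-1.61 ± 0.16), Fosl1 (-1.43 ± 0.16) and Junb (-0.82 ± 0.11). So did the orphan nuclear receptor genes Nr4a1 (-1.47 ± 0.16) and Nr4a2 (-1.62 ± 0.24) and the growth-regulating factor gene Myc, from 414 ± 45.2 to 228 ± 24.7 CPM (-0.86 ± 0.10). These 6 genes kept their call in all 10 fits that left out 1 library. Egr1, of the early growth response family, fell from 4908 ± 474 to 2200 ± 799 CPM (edgeR adjusted p = 0.033), with TdLN 3 lowest at 865 CPM. Its call held in 3 of the 10 fits, with an adjusted p of up to 0.0827 without TdLN 2.

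Some genes whose products shut signalling down fell beside the factors. The list of mRNA decay and inflammation brakes had 7 of 16 members lower and 0 higher (median -0.49), and 3 to 7 lower when a library was left out, 3 without TdLN 2. Zfp36, which encodes a protein that destabilises cytokine mRNAs, was at 2894, 3814, 3571, 2917 and 3300 CPM in NdLN and at 1386, 1214, 1557, 1710 and 1372 CPM in TdLN libraries. No TdLN library came near the NdLN range (-1.19 ± 0.12, edgeR adjusted p = 0.00101). Btg2, an antiproliferative factor that promotes mRNA deadenylation, fell by 1.28 ± 0.14 on the log2 scale. Ppp1r15a, a phosphatase subunit that ends the translational block of the integrated stress response, fell by 0.83 ± 0.10. Of the 28 tested genes of JAK-STAT signalling and feedback, Socs3 (1731 ± 211 to 891 ± 109 CPM), Cish (78.3 ± 11.7 to 44.0 ± 4.62 CPM) and Il6st fell, and the list's median was 0.01. Socs3 and Cish encode inhibitors that cytokine receptors induce. The call of Il6st held in 2 of the 10 fits, with an adjusted p of up to 0.115 without NdLN 4.

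Single inducible genes outside these lists fell too. The pseudokinase gene Trib1 fell by 1.21 ± 0.13 on the log2 scale. Rgs16, which encodes a protein that speeds the inactivation of G-protein signals, was at 1036, 1252, 979, 930 and 1047 CPM in NdLN and at 468, 382, 470, 412 and 476 CPM in TdLN libraries. Its TdLN values were tightly grouped, and it was the 1 of 11 tested members of its family that was called (-1.25 ± 0.10, edgeR adjusted p = 0.000374). Rnd1, an atypical small GTPase gene whose product loosens actin stress fibres, was at 683, 775, 808, 654 and 735 CPM in NdLN and at 310, 256, 307, 339 and 268 CPM in TdLN libraries. It shared the smallest adjusted p of the comparison with Fgf23 (-1.30 ± 0.10, edgeR adjusted p = 0.000351). Of 25 tested genes of the actin and serum response factor list Rnd1 was the only one called (median of the list -0.19), and the median of the Rgs family was 0.04.

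**Figure D2:**
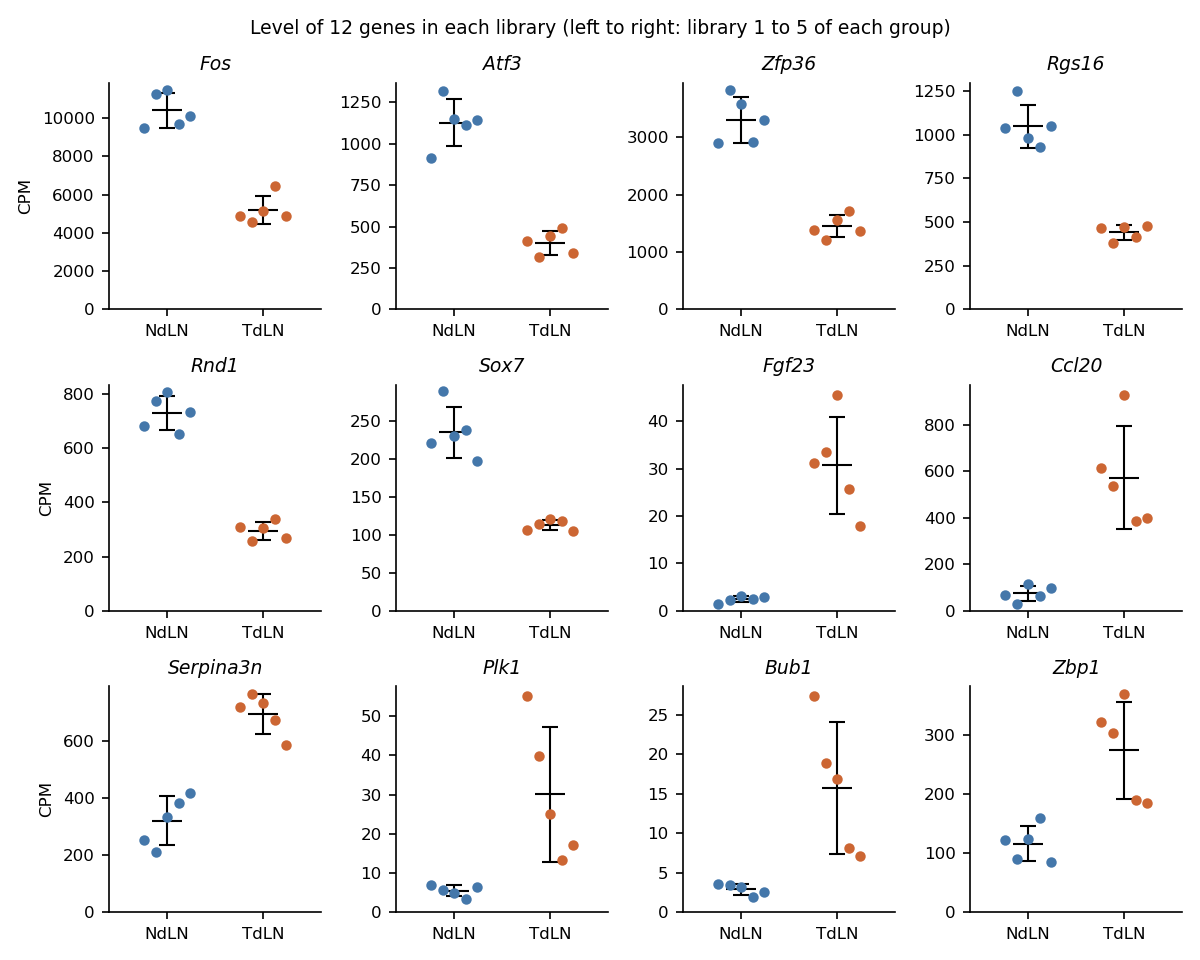
CPM of 12 genes in each library, drawn left to right as library 1 to 5 of NdLN (blue) and TdLN (orange), with the mean and SD of 5 libraries in black. For Fos, Atf3, Zfp36, Rgs16, Rnd1 and Sox7 the TdLN libraries cluster below the NdLN libraries, while for Plk1, Bub1 and Zbp1 the TdLN libraries are spread, with TdLN 4 and TdLN 5 lowest.

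Among cytosolic heat shock genes 4 of 18 fell and 0 rose (median -0.35). Dnajb1, which encodes a co-chaperone of Hsp70, fell from 1250 ± 196 to 636 ± 123 CPM, and Hsph1, a nucleotide exchange factor of the same machine, from 312 ± 66.3 to 183 ± 19.9 CPM. The other members called were Dnajb4 and Hspa8. Of 18 genes of the circadian clock list 3 fell, Cry2, Per1 and Bhlhe40, and of 18 glucocorticoid response genes 3 fell, Sgk1, Per1 and Errfi1. Either count was 1 without NdLN 4 or TdLN 1, where Cry2 and Sgk1 were the members still called. Sgk1, a kinase gene that regulates ion transport, went from 1394 ± 299 to 730 ± 41.8 CPM. The ATF4 and amino acid response list was split, with 5 lower (Ppp1r15a, Slc38a2, Atf4, Slc3a2 and Ddit3) and 3 higher (Asns, Aldh18a1 and Psat1) of 23. The 3 that rose encode enzymes of asparagine, proline and serine synthesis. None of the list was higher in 8 of the 10 fits that left out 1 library (5 were without TdLN 4 or TdLN 5), and the lower count fell to 2 without NdLN 2, NdLN 3, NdLN 4 or TdLN 2. Slc38a2, which encodes an amino acid transporter, kept its call in all 10 fits.

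The list of YAP and TEAD genes, which holds targets that report cell tension and contact and also Wwtr1, had 5 of 18 members lower and 0 higher. Ccn1, a matricellular protein gene, fell from 5164 ± 714 to 2686 ± 250 CPM, Amotl2, which encodes a junctional scaffold that binds YAP, from 315 ± 31.3 to 149 ± 19.9 CPM, and Wwtr1, which encodes the YAP paralog TAZ, from 380 ± 33.6 to 273 ± 22.8 CPM. Ccn2 and Ptpn14 were the other members that fell. The count was 3 without NdLN 4, TdLN 1 or TdLN 2. Sox7, an endothelial SoxF transcription factor gene, was at 221, 289, 230, 237 and 197 CPM in NdLN and at 107, 114, 121, 118 and 105 CPM in TdLN libraries. The TdLN libraries were almost level with each other, and Sox7 was the 1 of 9 tested Sox genes that changed (-1.06 ± 0.10, edgeR adjusted p = 0.000956).

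Secreted factors changed in both directions. Fgf23 (ENSMUSG00000000182), on chromosome 6 at 127072902 to 127081408 of GRCm38, encodes a hormone of phosphate balance that is best known from bone. It was at 1.56, 2.28, 3.09, 2.52 and 2.94 CPM in NdLN and at 31.1, 33.4, 45.5, 25.7 and 17.8 CPM in TdLN libraries. The lowest TdLN library was thus well above the highest NdLN library, with 433 counts summed over the NdLN and 5391 over the TdLN libraries (3.63 ± 0.28, edgeR adjusted p = 0.000351). It was also the largest log2 fold change among called genes with at least 10 CPM over the 10 libraries and no overlap. Of 15 tested fibroblast growth factor and receptor genes, Fgf11 was the other one called, lower, in 1 of the 10 fits that left out 1 library.

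Ccl20, a chemokine gene for CCR6-positive lymphocytes that marks the sinus floor, was at 69.7, 31.8, 114, 64.8 and 99.3 CPM in NdLN and at 617, 539, 930, 386 and 399 CPM in TdLN libraries. Even the lowest TdLN library exceeded every NdLN library by a wide margin (2.92 ± 0.36, edgeR adjusted p = 0.00348). Of 23 chemokine genes tested, Ccl20, Cxcl9 and Ccl9 rose and Ccl7 and Cx3cl1 fell. Ccl7, which attracts monocytes, was at 68.7, 68.4, 81.2, 65.8 and 50.6 CPM in NdLN and at 25.0, 23.2, 29.2, 24.7 and 20.8 CPM in TdLN libraries, with no overlap (-1.45 ± 0.13, edgeR adjusted p = 0.00091). The membrane-bound chemokine gene Cx3cl1 fell from 52.7 ± 9.17 to 19.9 ± 3.43 CPM. Cxcl9, an interferon-gamma induced chemokine gene, went from 29.2 ± 14.3 to 157 ± 117 CPM, with TdLN 3 at 365 CPM, and its call held in 8 of the 10 fits (adjusted p up to 0.065 without NdLN 4).

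Some other secreted proteins were higher, among them some that the liver makes in the acute phase. Lrg1, a leucine-rich glycoprotein gene that modulates TGF-beta signals in endothelium, was at 1552, 1523, 1908, 1776 and 1781 CPM in NdLN and at 3410, 3698, 3869, 2548 and 2288 CPM in TdLN libraries. TdLN 4 and TdLN 5 were the lowest of the TdLN libraries, and still lay above every NdLN library (0.89 ± 0.15, edgeR adjusted p = 0.0115). Serpina3n, a serine protease inhibitor gene, was at 254, 213, 336, 384 and 418 CPM in NdLN and at 722, 766, 735, 674 and 588 CPM in TdLN libraries, again with no overlap (1.12 ± 0.17, edgeR adjusted p = 0.00891). Of 24 serpin genes tested, Serpina3n, Serpina1b, Serpina11 and Serpina3i rose and 0 fell. The calls held in 10, 5, 2 and 0 of the 10 fits that left out 1 library (adjusted p of Serpina3i up to 0.108 without TdLN 1). Timp1, a metalloproteinase inhibitor gene, went from 20.6 ± 3.68 to 60.1 ± 20.6 CPM (1.55 ± 0.23), the 1 of 17 Mmp and Timp genes that changed. Reg3g, which encodes an antibacterial lectin made mainly by gut epithelium, went from 7.09 ± 2.79 to 35.3 ± 15.5 CPM (2.31 ± 0.38, edgeR adjusted p = 0.0109). Markers of keratinocytes and epithelium summed to at most 1.06 CPM in any library.

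Hyaluronan genes also changed. Has2, a hyaluronan synthase gene, was at 0.551, 1.11, 0.794, 0.724 and 1.54 CPM in NdLN and at 5.43, 4.23, 17.6, 9.58 and 6.4 CPM in TdLN libraries. It was low in both groups and yet did not overlap (3.19 ± 0.45, edgeR adjusted p = 0.00632). Hyal2, which encodes a hyaluronidase of the cell surface, rose by a smaller step, from 597 ± 19.2 to 790 ± 56.0 CPM. Lyve1, the hyaluronan receptor, went from 945 ± 250 to 1638 ± 310 CPM with overlapping libraries, and its call held in 3 of the 10 fits (adjusted p up to 0.102 without NdLN 2). In the hyaluronan and heparan sulfate list 4 of 30 rose and 2 fell, with 2 to 3 higher and 0 to 2 lower when a library was left out (0 lower without NdLN 1, NdLN 4 or TdLN 2). Itih2, which encodes an inter-alpha-trypsin inhibitor chain that is bound to hyaluronan, fell from 55.1 ± 11.1 to 17.5 ± 3.65 CPM (-1.65 ± 0.18, edgeR adjusted p = 0.0016).

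A few other secreted factors fell. Gdf15, a stress cytokine gene, went from 158 ± 65.2 to 46.4 ± 10.3 CPM, with NdLN 2 far above the other NdLN libraries at 275 CPM. Igfbp5, whose protein binds insulin-like growth factors, went from 436 ± 154 to 111 ± 60.2 CPM (-1.97 ± 0.37, edgeR adjusted p = 0.0177), and with Igfbp6 it made 2 of 5 tested members of its family lower. The call of Igfbp6 held in 3 of the 10 fits (adjusted p up to 0.0869 without TdLN 1). No member of the list of cytokines and growth factors rose (0 of 53, where 2.08% of all tested genes did). Fgf23 and the chemokine genes that rose are not on this list. DESeq2 called 2 members higher, and 1 was higher without TdLN 4. Gdf15, Hbegf, Mdk, Wnt2 and Il6 fell (5 of 53, where 3.29% of all tested genes did). These calls held in 10, 7, 6, 2 and 1 of the 10 fits that left out 1 library, and without TdLN 1 or TdLN 2 the list had 1 lower. Of the 53 cytokine and growth factor receptors tested 0 rose, and Tgfbr2, Tek, Flt1 and Il6st fell, of which Tgfbr2 alone kept its call without TdLN 2. The stricter filter, DESeq2 and the fit without TdLN 4 each called 1 receptor higher. In the fit of all 15 libraries 1 receptor fell. Ch25h, the gene of the enzyme that makes 25-hydroxycholesterol, the oxysterol named in the series' title, was at 27.8 to 43.6 CPM in NdLN and at 11.7 to 15.7 CPM in TdLN libraries (-1.31 ± 0.14, edgeR adjusted p = 0.0016).

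Genes of cell division were higher in TdLN. Of 44 genes of the spindle, the kinetochore and cytokinesis 34 rose and 0 fell, with a median log2 fold change of 1.87, and all 44 had a positive value. Promoter sequences of members are shown because genes of mitosis share known motifs. The motifs were the CCAAT box (CCAAT, bound by NF-Y) and the cell cycle genes homology region CHR (TTTGAA, bound by the DREAM complex and B-MYB), searched on both strands. The windows run from 250 bases before to 50 bases after the transcription start in the RefSeq promoter table for GRCm38.p6, and capitals mark the motifs. Plk1 encodes a master kinase of mitosis (chr7:122159185-122159484, plus strand), and Ccnb2 a mitotic cyclin (chr9:70421505-70421804, minus strand).
Plk1: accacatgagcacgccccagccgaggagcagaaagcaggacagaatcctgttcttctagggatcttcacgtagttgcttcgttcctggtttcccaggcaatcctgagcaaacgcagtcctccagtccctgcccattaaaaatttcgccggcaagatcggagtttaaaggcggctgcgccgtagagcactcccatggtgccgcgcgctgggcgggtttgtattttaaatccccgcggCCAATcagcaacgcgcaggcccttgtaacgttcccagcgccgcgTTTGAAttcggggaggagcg
Ccnb2: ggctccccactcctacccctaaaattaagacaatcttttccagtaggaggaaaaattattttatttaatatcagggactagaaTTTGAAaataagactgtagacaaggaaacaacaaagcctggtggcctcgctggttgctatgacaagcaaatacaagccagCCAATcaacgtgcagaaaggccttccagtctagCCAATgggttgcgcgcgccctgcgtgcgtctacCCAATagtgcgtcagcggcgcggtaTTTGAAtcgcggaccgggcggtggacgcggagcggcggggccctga

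The Plk1 window held 1 CCAAT box and 1 CHR, and the Ccnb2 window held 3 CCAAT boxes and 2 CHR matches. The table held 43 promoters of 38 of the 44 genes. Of these 43, 65.1% held the CHR letters and 74.4% the CCAAT letters. Among promoters of all tested genes the shares were 12% and 37.8%, and among all 32851 promoters 17.9% and 37.4%. For promoters of all genes called higher they were 29.0% and 48.5%, and for those called lower 11.5% and 36.2%. The E2F letters TTTCCCGC, a motif of genes that act at the start of DNA synthesis, stood in 16.7% of 36 promoters of the DNA replication list and in 1.94% of those of tested genes. A match describes the letters only.

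Plk1 was at 7.04, 5.79, 4.95, 3.31 and 6.56 CPM in NdLN and at 55.1, 39.8, 25.0, 13.4 and 17.2 CPM in TdLN libraries. All TdLN libraries were above all NdLN libraries, and TdLN 1, TdLN 2 and TdLN 3 were clearly higher than TdLN 4 and TdLN 5 (2.44 ± 0.39, edgeR adjusted p = 0.0106). Bub1, a kinase gene of the spindle checkpoint, had the same split, at 3.55, 3.50, 3.18, 1.95 and 2.55 CPM in NdLN and at 27.4, 18.9, 16.9, 8.20 and 7.10 CPM in TdLN libraries (2.41 ± 0.38, edgeR adjusted p = 0.00891). Prc1, which bundles the microtubules of the central spindle, rose from 13.7 ± 3.45 to 58.1 ± 27.1 CPM. Kif11, the motor gene that pushes spindle poles apart, rose from 5.57 ± 1.69 to 23.8 ± 12.1 CPM, and Cenpf, of the outer kinetochore, from 6.42 ± 0.836 to 26.4 ± 12.9 CPM. These 5 genes kept their call in all 10 fits that left out 1 library.

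The remaining cell cycle lists moved less. Of 20 genes of chromosome condensation and cohesion 7 rose, of 40 cyclins, kinases and cycle factors 9 rose and 1 fell, of 39 replication genes 5 rose, of 33 repair genes 4 rose and of 28 genes of nucleotide synthesis 4 rose. Medians were 0.79, 0.68, 0.81, 0.45 and 0.35 on the log2 scale. E2f1, a transcription factor gene of entry into the cycle, went from 1.49 ± 0.289 to 7.65 ± 2.69 CPM and did not share the order of the mitotic genes. It was highest in TdLN 4, at 12.2 CPM, and at 5.61 to 7.79 CPM in the other TdLN libraries (2.36 ± 0.27, edgeR adjusted p = 0.00178). Rbl2, which encodes the pocket protein p130 of resting cells, was the 1 cycle gene that fell, from 39.7 ± 4.02 to 28.9 ± 2.49 CPM, and its call held in 3 of the 10 fits (adjusted p up to 0.0792 without NdLN 4). Cdk1 (10.5 ± 3.39 to 49.9 ± 31.9 CPM) and Ccnb2 (14.7 ± 5.44 to 63.5 ± 39.5 CPM) rose, with calls that held in 6 and 4 of the 10 fits (adjusted p up to 0.0614 without NdLN 4 and 0.066 without TdLN 1).

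How many cell cycle genes passed depended on single libraries. Without TdLN 2 the spindle list had 11 members higher, without NdLN 4 it had 12, and without TdLN 4 it had 41. Replication genes went from 5 called to 0 without NdLN 2, NdLN 3, NdLN 4, NdLN 5 or TdLN 2, and to 18 without TdLN 4. The nucleotide synthesis list had 0 called in 8 of the 10 fits, and 8 without TdLN 4 and 6 without TdLN 5. Repair genes ranged from 0 without TdLN 2 to 7 without TdLN 4, chromosome genes from 1 (without NdLN 3, NdLN 5 or TdLN 2) to 11 and the cyclin list from 1 (without NdLN 4 or TdLN 2) to 14, both highest without TdLN 4. The CPM summed over the spindle list lay between 236 and 374 in the NdLN libraries and was 1617, 1407, 1002, 438 and 564 in TdLN libraries. Groups did not overlap, and TdLN 1 was the highest and TdLN 4 the lowest of the TdLN libraries.

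**Figure D3:**
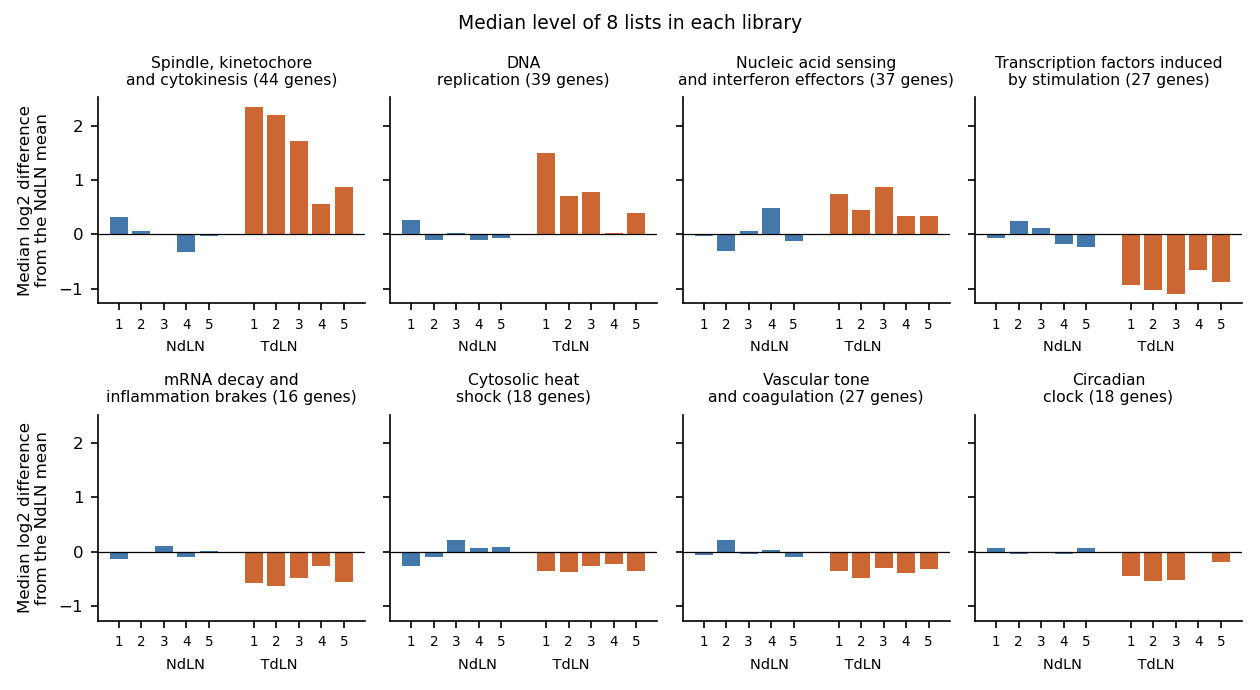
For 8 lists, each bar is 1 library and shows the median over the list's tested genes of the log2 difference (CPM plus 1) from the NdLN mean. Spindle and replication genes differ between TdLN libraries, with TdLN 4 lowest, whereas transcription factors induced by stimulation are at -1.10 to -0.65 in all 5 TdLN libraries.

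A minority of the interferon-related genes passed the test. Of 37 tested genes of nucleic acid sensing and interferon effectors 9 rose and 0 fell, with a median log2 fold change of 0.59, and 3 to 12 rose when a library was left out, 3 without TdLN 2. The interferon-stimulated response element core, searched as GAAA, any 2 bases and GAAA, was found, on either strand, in 48.4% of 31 promoters of this list, in 3.23% of those of tested genes and in 3.44% of all promoters. It stood in 6.11% of 262 promoters of all genes called higher and in 2.98% of 470 promoters of those called lower. The promoters below are of 2 members that rose, Oas1a (chr5:120907476-120907775, minus strand) and Eif2ak2 (chr17:78882523-78882822, minus strand), from the same RefSeq table, with the core in capitals. In Oas1a a pair of matches overlap.
Oas1a: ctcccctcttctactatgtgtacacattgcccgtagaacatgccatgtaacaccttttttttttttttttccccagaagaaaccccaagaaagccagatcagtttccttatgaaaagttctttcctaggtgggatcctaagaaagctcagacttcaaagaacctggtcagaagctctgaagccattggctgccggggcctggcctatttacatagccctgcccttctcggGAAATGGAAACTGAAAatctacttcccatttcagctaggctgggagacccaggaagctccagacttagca
Eif2ak2: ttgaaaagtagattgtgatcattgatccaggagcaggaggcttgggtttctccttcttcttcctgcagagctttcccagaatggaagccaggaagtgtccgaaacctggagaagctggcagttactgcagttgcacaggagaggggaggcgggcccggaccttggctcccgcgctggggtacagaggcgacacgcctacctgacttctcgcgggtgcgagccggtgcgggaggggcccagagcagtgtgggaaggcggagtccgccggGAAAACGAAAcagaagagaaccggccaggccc

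Oas1a, which encodes an enzyme that senses double-stranded RNA, went from 27.7 ± 7.92 to 70.3 ± 23.5 CPM. TdLN 4 and TdLN 5, at 43.3 and 46.6 CPM, were near NdLN 4 at 39.1 CPM, and the call held in 6 of the 10 fits (adjusted p up to 0.0577 without TdLN 2). Oas1a has close copies in the genome, which can share reads of 50 bases. Eif2ak2, the gene of the RNA-activated kinase PKR, went from 36.4 ± 7.43 to 62.4 ± 7.40 CPM and kept its call in all 10 fits. Zbp1, a sensor of Z-form nucleic acids, was at 122, 89.7, 123, 159 and 85.2 CPM in NdLN and at 322, 302, 368, 189 and 185 CPM in TdLN libraries. The groups did not overlap, TdLN 4 and TdLN 5 were lowest among the TdLN libraries (1.24 ± 0.23, edgeR adjusted p = 0.0182), and the adjusted p was 0.0517 without TdLN 2. Tmem173, which encodes the adaptor STING, rose from 689 ± 96.8 to 1058 ± 83.3 CPM (0.62 ± 0.11).

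Some single genes of antigen processing and cell death rose by small steps. The peptide transporter gene Tap1 rose from 438 ± 64.8 to 724 ± 113 CPM. Of 22 tested MHC genes of the H2 family 1 was called, H2-T22, higher, with a call that held in 2 of the 10 fits (adjusted p up to 0.0777 without TdLN 2), and 9 of 22 had a positive log2 fold change (median -0.03). Of 43 proteasome subunits 5 rose, Psme4, Psma5, Psmb9, Psma4 and Psme2, by 0.39 to 0.76 on the log2 scale, and 42 of 43 had a positive value, with a median of 0.28. Each of the 5 lost its call without at least 1 library, with an adjusted p of up to 0.107 for Psme2 without TdLN 2. In the apoptosis list Casp1, the inflammatory caspase gene (76.3 ± 7.18 to 109 ± 9.38 CPM), Mlkl, the executor of necroptosis (75.1 ± 8.96 to 121 ± 26.1 CPM), and Bak1 rose, of 25 tested. Mlkl kept its call in 4 and Bak1 in 2 of the 10 fits (adjusted p up to 0.0678 without NdLN 2 and 0.0855 without TdLN 1). Macrophage and monocyte markers summed to 68.6 to 120 CPM in NdLN and 74.4 to 157 CPM in TdLN libraries, highest in TdLN 4, and their part in these differences was not tested.

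Part of the genes known from blood endothelium were lower. Emcn, the endomucin gene, went from 126 ± 18.9 to 54.8 ± 11.4 CPM, and Vwf, the von Willebrand factor gene, from 37.5 ± 11.2 to 14 ± 3.16 CPM, both with no overlap. Of the 12 blood endothelial markers Emcn, Vwf, Ptprb, Flt1 and Esam fell and 0 rose. The summed level of the list was 6720 ± 2339 CPM in NdLN and 6805 ± 1919 CPM in TdLN, of which Plvap made up 2408 ± 1859 and 3212 ± 1908 CPM. Plvap was the 1 marker of the list with a positive log2 fold change (0.42, edgeR adjusted p = 0.765), and the median of the list was -0.71. The other 7 markers were not called. Ptprb, Flt1 and Esam kept their call in 8, 6 and 2 of the 10 fits, with an adjusted p of up to 0.0524 and 0.0739 without TdLN 2 and 0.103 without TdLN 1. Of 27 genes of vascular tone and coagulation 8 fell and 0 rose (median -0.42), Vwf, Ace, Plat, Edn1, Ptgs1, Gucy1a1, Procr and Ece1. Without NdLN 4 or TdLN 2 the count was 3. The contribution of blood endothelial cells to these values was not tested.

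Genes of lymphatic identity did not move together. Prox1, the master regulator of lymphatic fate, was at 647, 777, 763, 759 and 751 CPM in NdLN and at 495, 430, 622, 497 and 577 CPM in TdLN libraries. It was lower in every TdLN library (-0.50 ± 0.10, edgeR adjusted p = 0.0252), and its call held in 4 of the 10 fits (adjusted p up to 0.0641 without NdLN 4) and was lost in the fit of all 15 libraries. Nr2f2, which encodes the venous and lymphatic factor COUP-TFII, rose from 73.9 ± 3.42 to 97.6 ± 6.19 CPM. Mmrn1, a matrix protein gene of lymphatic vessels, fell from 3862 ± 674 to 2546 ± 274 CPM, and Pecam1, which encodes the CD31 used in the sort, from 1541 ± 81.1 to 1147 ± 90.2 CPM. The call of Mmrn1 held in 6 of the 10 fits, with an adjusted p of up to 0.0689 without TdLN 2. Over the 11 lymphatic markers Lyve1 rose, Prox1, Mmrn1 and Pecam1 fell, and the median was -0.01.

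Markers of places in the node differed in part. The 6 markers of the sinus ceiling summed to 7611 to 9820 CPM in NdLN and to 4654 to 6630 CPM in TdLN libraries, with no overlap. Of these the fatty acid translocase gene Cd36 (3210 ± 659 to 1760 ± 382 CPM), the caveolin gene Cav1 (1890 ± 366 to 1217 ± 126 CPM) and Ackr4, a scavenger of homing chemokines (2330 ± 541 to 1438 ± 221 CPM), fell, with calls that held in 7, 7 and 4 of the 10 fits. Without TdLN 2 the adjusted p was 0.0577 for Cav1 and 0.0831 for Ackr4, and without NdLN 4 it was 0.0623 for Cd36. The other ceiling markers were not called, Npnt (log2 fold change 0.585), Foxc2 (-0.143) and Jam3 (-0.171). The median of the ceiling list was -0.40. Summed floor markers overlapped, at 3668 to 7800 CPM in NdLN and 6516 to 8407 CPM in TdLN libraries. Summed medullary and cortical sinus markers did too, at 2291 to 4297 and 3414 to 4532 CPM. Of the 6 floor markers (median log2 fold change 0.50) Ccl20 was called higher. Itga2b also had no overlap, at 711 to 1426 CPM in NdLN and 1452 to 2422 CPM in TdLN libraries (edgeR adjusted p = 0.0715). Of the floor markers 4 had a positive log2 fold change, and Bmp2 (-0.254) and Csf1 (-0.459) had negative ones and were not called. Of the 8 medullary and cortical sinus markers (median 0.28) Lyve1 was called higher, and 4 of the 8 had a positive log2 fold change. Shares of ceiling, floor and medullary cells were not measured, and their part in the differences was not tested. Among the other atypical chemokine receptors Ackr2, a scavenger of inflammatory CC chemokines, rose from 255 ± 34.0 to 468 ± 89.6 CPM, and Ackr3, a scavenger of CXCL12, fell from 445 ± 91.7 to 250 ± 27.2 CPM.

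Lipid-related and redox genes added to those that fell. Apoe, the apolipoprotein E gene, was at 1097, 1302, 1535, 1407 and 1342 CPM in NdLN and at 353, 484, 606, 889 and 600 CPM in TdLN libraries. It did not overlap, and TdLN 4 was closest to the NdLN range (-1.19 ± 0.21, edgeR adjusted p = 0.014). Gpihbp1, whose product anchors lipoprotein lipase to endothelium, fell from 54.8 ± 18.2 to 17.9 ± 2.82 CPM. Of 29 genes of lipases, lipoproteins and lipid droplets these and Cd36 and Cav1 fell and 0 rose, with 2 lower without NdLN 4 or TdLN 2. The adipocyte marker list came down to Fabp4, a lipid carrier gene that endothelium also expresses, at 866 to 1926 CPM in NdLN and 522 to 1093 CPM in TdLN libraries. The defining adipocyte genes Adipoq, Plin1, Cidec and Retn were at most at 0.612 CPM, and Lep was at 0 in all 10 libraries.

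Duox2, which encodes an oxidase that makes hydrogen peroxide, was at 116, 166, 84.4, 112 and 85.7 CPM in NdLN and at 25.8, 31.3, 37.6, 31.2 and 41.7 CPM in TdLN libraries. Every TdLN library was well below the lowest NdLN library (-1.75 ± 0.20, edgeR adjusted p = 0.00178). Fmo2, a flavin monooxygenase gene, had the largest fall among called genes with at least 10 CPM and no overlap, from 19.0 ± 5.32 to 3.00 ± 1.77 CPM (-2.66 ± 0.46, edgeR adjusted p = 0.0126), a call that the fit of all 15 libraries did not make. Akr1b8, an aldo-keto reductase gene, rose from 2.13 ± 0.445 to 10.9 ± 6.14 CPM. Of 32 genes of oxidative stress and oxidases 1 rose, Akr1b8, and Duox2, Gstm1, Sod3 and Gpx1 fell, of which 1 was called without NdLN 4. The copper oxidase gene Cp fell from 1041 ± 129 to 643 ± 114 CPM, with Heph the other one called of 16 iron handling genes. The call of Cp held in 8 of the 10 fits (adjusted p up to 0.0559 without TdLN 2) and that of Heph in 1 (0.115 without NdLN 4).

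Matrix and junction genes changed in small numbers. Of 42 matrix glycoproteins and proteoglycans 2 rose, Sparc and Emilin1, and 3 fell, Mmrn1, Bgn and Fndc1. None of the list was higher in 8 of the 10 fits that left out 1 library, and none was called in either direction without NdLN 4 or TdLN 2. Col4a5, Col16a1 and Col5a1 fell out of 32 collagen genes. Claudin and tight junction genes that fell included Jam2, Tjp1 and Cldn15. Each of these 6 genes lost its call in at least 4 fits, up to an adjusted p of 0.108 for Cldn15 without NdLN 4. Summed fibroblast and reticular cell markers were at 314 to 648 CPM in NdLN and 158 to 448 CPM in TdLN libraries, 0 of the 12 was called by edgeR (3 at an unadjusted p under 0.05, 1 by DESeq2), and their part in the matrix values was not tested.

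**Figure D4:**
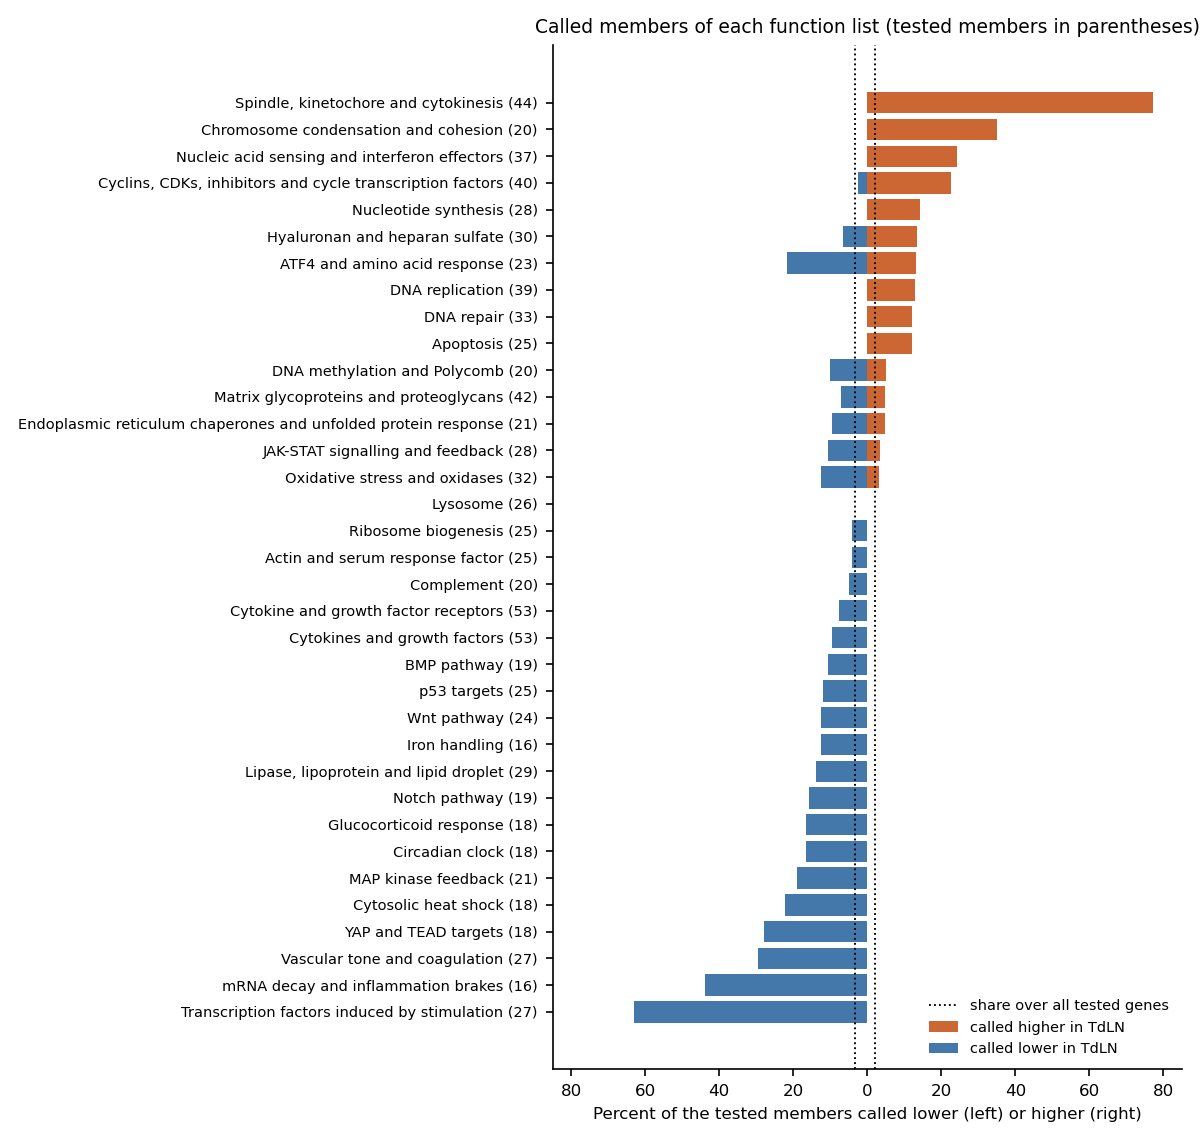
Percent of the tested members of each of 35 function lists that were called lower (blue, to the left) or higher (orange, to the right) in TdLN, with the share over all tested genes dotted (2.08% higher, 3.29% lower). The bars are longest for spindle genes (34 of 44 higher) and for transcription factors induced by stimulation (17 of 27 lower).

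Whole families were also without a call. None of 81 cytosolic ribosomal proteins, 37 complex I subunits, 34 ATP-binding cassette transporters, 33 calcium, sodium and TRP channels, 27 myosins, 22 Hox genes, 18 tubulins, 14 C-type lectins, 10 annexins, 8 S100 proteins or 6 connexins passed edgeR's test. Of these 290 genes 47 had an unadjusted p under 0.05, and DESeq2 called 11. The ribosomal proteins still had a positive log2 fold change in 71 of 81 cases (median 0.17), and complex I subunits in 34 of 37 (median 0.18). The 26 tested lysosome genes had 0 called by edgeR (9 at an unadjusted p under 0.05, 4 called by DESeq2) and a median of 0.04. Short transcripts had slightly higher values than long ones: the median log2 fold change was 0.08 in the fifth of genes with the shortest transcripts and -0.07 in the fifth with the longest. With an offset for GC content and transcript length 724 genes were called, of which 627 were among the 698.

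The count of called genes itself moved with single libraries. It ranged from 247 without TdLN 2 to 828 without TdLN 4, and the genes higher in TdLN from 67 to 432 in the same fits. Genes lower in TdLN ranged from 180 without TdLN 2 to 399 without TdLN 5. DESeq2 called 1586 genes, 694 of the 698 among them. Of the 144 called genes named here and in the closing observations, 69 kept their call in all 10 fits that left out 1 library. The other 75 lost it in at least 1 fit, 70 of them without TdLN 2 and 69 without NdLN 4, with an adjusted p of at most 0.115. In the fit of all 15 libraries 49 of the 144 were not called.

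**Figure D5:**
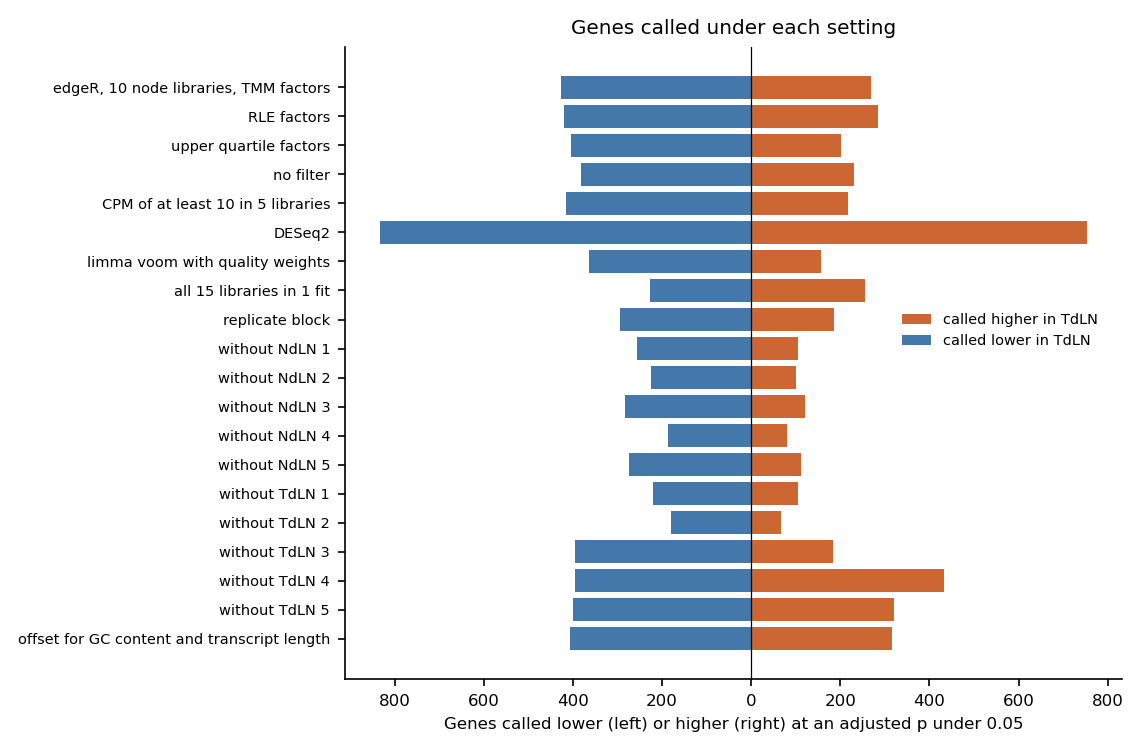
Genes called lower (blue, to the left) and higher (orange, to the right) in TdLN under each setting, with the edgeR fit of the 10 node libraries at the top. Leaving out TdLN 2 gives the fewest genes higher (67) and leaving out TdLN 4 gives 432, while DESeq2 calls 753 higher and 833 lower.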

How the data were processed

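RNA of sorted lymphatic endothelial cells was measured in 5 NdLN and 5 TdLN libraries. Per the labels' protocols, 1 ng of RNA was reverse transcribed and amplified, 200 pg of cDNA entered a Nextera XT preparation, and pools of 10 libraries gave single reads of 50 bases. The pool of each library is not recorded here, and its effect was not tested. The submitters' processing notes name featureCounts 1.4.6, STAR 2.4, CASAVA 1.8.2 and the build GRCm38. Which annotation and strand setting they counted with is not given in the sources used here. Since strand is not marked by this kit, reads of a gene and of one that overlaps it, on either strand, cannot be told apart. The authors deposited raw counts per gene for 21839 genes, not normalized. The reads carry no molecular identifiers, so several can stem from 1 amplified molecule.

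The test on the counts of the 10 node libraries was that of edgeR 4.0.16 under R 4.3.3 (filterByExpr, TMM factors, robust glmQLFit, glmQLFTest, Benjamini-Hochberg adjustment over all 13002 genes). CPM values use the TMM factors. Names and coordinates are from GENCODE M21, which held 21628 of the gene IDs. Alternatives were RLE and upper quartile factors, no filter, a minimum of 10 CPM in 5 libraries, DESeq2 1.42.0, limma 3.58.1 (voom with quality weights), all 15 libraries in 1 fit, the replicate number as a block and each library left out. An offset for GC content and transcript length was chosen after seeing the data. The edgeR step was checked on simulated data.

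Members and lists (35 function lists, 19 marker lists, 57 families by symbol) were chosen with earlier results of these data known. Named genes were, among called genes without predicted names, the 15 highest and 15 lowest log2 fold changes (at least 10 CPM over the 10 libraries, no overlap), the 15 smallest adjusted p, the 10 highest levels, up to 5 per list and 3 per family with the smallest p, the sort genes, Prox1 and Ch25h. Members of short counts that this rule leaves out, and Emcn, Tap1 and Ackr4, were named after their values were seen. A few genes of the lists are not reported here by name. The mean chi-square per gene between libraries of a group was at least 28.3, where sampling noise gives about 1, so none was counted as a duplicate.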

Additional observations from a re-analysis of the deposited data

Results flagged for a closer look

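Values of 5 libraries were read for a library that stands apart from the others of its group by Dixon's ratio (limit 0.71). Of 336 groups of values 18 passed, and chance alone gives about 1 in 20. NdLN 2 was the highest NdLN library for Gdf15 (275 CPM, others 121 to 136), Ccn1 (6410 CPM, others 4610 to 5060), Ccn2 (189 CPM, others 122 to 134), Nr2f2 (79.7 CPM, others 71.4 to 73.5) and Fabp4 (1930 CPM, others 867 to 1100), which makes up nearly all of the adipocyte markers (1930 CPM, others 870 to 1100). TdLN 3 was the highest TdLN library for Cxcl9 (365 CPM, others 83.2 to 126), Serpina11 (14.6 CPM, others 6.51 to 6.93) and the pericyte and smooth muscle markers (256 CPM, others 191 to 209).

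Among the other NdLN libraries, NdLN 1 was lowest for Prox1 (647 CPM, others 751 to 777), NdLN 3 lowest for Ackr2 (196 CPM, others 259 to 284) and NdLN 4 highest for Hyal2 (630 CPM, others 581 to 594). Among the other TdLN libraries, TdLN 1 was lowest for Il6 (1.75 CPM, others 2.98 to 3.46) and TdLN 2 highest for Ddit3 (15.8 CPM, others 13.5 to 13.9). TdLN 4 was highest for Psme4 (28.9 CPM, others 19.8 to 22.1) and lowest for Bak1 (2.3 CPM, others 4.66 to 5.49). TdLN 5 was highest for Igfbp6 (2.03 CPM, others 0.288 to 0.677) and lowest for Jam2 (3.46 CPM, others 4.6 to 4.90).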

How the results depend on the processing

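Under other settings the 698 called genes (270 higher, 428 lower) became 705 with RLE factors, 606 with upper quartile factors, 611 without a filter and 633 with the stricter filter. DESeq2 called 1586 (753 higher, 833 lower) and voom called 521, with 157 higher. The fit of all 15 libraries called 484 genes with 228 lower, which moved the share called higher from 38.7% to 52.9%, and the offset for GC content and transcript length moved it to 43.8%. DESeq2 gave a share of 47.5%. Leaving out 1 library gave 247 to 828 called genes, 67 to 432 higher and 180 to 399 lower, and the cause of the differences between these counts was not tested. Pdpn, not called in any of the settings run, had a log2 fold change of -0.03, which was 0.001 with voom and ran from -0.088 to 0.073 when 1 library was left out, above 0 without NdLN 1 (0.073) and without TdLN 4 (0.053).

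The replicate number as a block called 480 genes (185 higher, 295 lower), 398 of them among the 698. The numbers were not taken to pair the libraries, because the labels do not say that equal numbers mark the same mouse. Deviations of libraries of the same number correlated at 0.156, 0.072, 0.298, -0.110 and -0.108 for numbers 1 to 5, and not every library correlated best with its own number. These few values cannot decide whether equal numbers mark the same mouse. Of the 144 called genes named, 73 kept their call in the 9 other settings that could test them, and 48 lost it with the block, Eif2ak2 and Igfbp5 among them. With the block 4 interferon effector genes were higher and 0 receptors lower. Depth limits the low genes: Has2 and E2f1 lay under 2 CPM in every NdLN library.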

Other observations

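Gene families outside the function lists are given here as values, beside shares of 2.08% higher and 3.29% lower over all tested genes. Of 32 kinesin genes 7 rose and 1, Kif13b, fell, and of 21 centromere protein genes 6 rose. Mitochondrial ribosomal protein genes had 5 of 77 higher, Mrpl17, Mrpl51, Mrpl44, Mrpl42 and Mrpl58, and a positive log2 fold change in 71 of 77. These 5 calls held in 7, 3, 1, 2 and 2 of the 10 fits that left out 1 library. Solute carrier genes had 3 of 237 higher and 8 lower. G-protein coupled receptor genes had 3 of 84 higher and 5 lower. Zinc finger genes named Zfp had 0 of 342 higher and 6 lower. The counts of the solute carriers and of the Zfp genes were near or below the shares over all genes.

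Genes of the largest folds or highest levels that no paragraph above describes were Aplp2, a homolog of the amyloid precursor protein gene, which fell from 3500.0 ± 252 to 2097 ± 267 CPM, Fam180a, which fell from 41.0 ± 10.1 to 11.2 ± 5.44 CPM, and Tppp3, a tubulin polymerisation gene, which fell from 62.8 ± 19.9 to 22.3 ± 6.47 CPM. Melk, a kinase gene of dividing cells, rose from 3.78 ± 1.35 to 19.9 ± 12 CPM. Genes picked after their values were seen were Pbx3, a homeobox gene, at 4.93 to 6.89 CPM in NdLN and 11.5 to 20.5 CPM in TdLN libraries, and the T cell kinase gene Lck, at 20.8 to 28.1 and 28.4 to 49.8 CPM (edgeR adjusted p = 0.0402, up to 0.0994 without NdLN 4). The other 9 T cell markers were not called and had negative log2 fold changes, such as Cd3g (-2.72, at most 4.45 CPM). The immunoglobulin gene Ighg1 was at 67.1 CPM in TdLN 3 and at most 0.985 CPM in the other 9 libraries.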
